A study of Mus musculus with 2 samples.

Results

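Cortical interneurons are the GABAergic neurons of the cortex, and most are born in the ventral forebrain, in the medial (MGE) or the caudal ganglionic eminence (CGE), before they migrate into the cortex. Here 8 genes that mark these origins were followed, 8 of the 27998 genes counted in the files. Lhx6, Maf, Sox6 and Satb1 were taken as MGE-type genes and Prox1, Nr2f2, Adarb2 and Npas1 as CGE-type genes, from textbook knowledge. The genes were examined in cells with at least 1 unique molecular identifier (UMI, a tag on each captured RNA molecule) of Gad1 or Gad2, which encode the enzymes of GABA synthesis. These Gad cells numbered 2162 of 6566 kept cells in the WT library (32.9%, 95% Clopper-Pearson interval 31.8 to 34.1) and 1789 of 5929 in the cKO library (30.2%, 29.0 to 31.4).

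The libraries came from newborn (P0) C57BL/6 mice, 1 library of WT and 1 of STINGf/f;Nestin-Cre mice (cKO), in which Cre made in neural progenitors and their offspring removes the STING gene. The tissue is given as telencephalic in the sample labels and as cerebral cortex in the study's methods, and the number of animals per library is not given. The labels call the control WT, while the paper uses both WT and STING fl/fl for it, so whether the control mice carried the floxed allele is uncertain. The study set the libraries side by side to ask how cortical cells differ without STING. With 1 library per genotype there was no replicate error and no test, so each difference below is one between these libraries, and every interval is a 95% interval of counting error only. PCR duplicates are removed by the UMIs, but cells of 1 library are not independent samples of a genotype.

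The libraries held 10715 and 9198 barcodes, with 69554624 UMIs in WT and 67448785 in cKO. Gad cells had a median of 5552 UMIs in WT and 6217 in cKO. Tmem173, which encodes STING, had 126 UMIs over all kept WT cells (2.27 UMIs per 1000000, or CPM) and 18 in cKO (0.331 CPM), and 15 and 5 of these were in Gad cells. Xist was found in 0.152% of WT and 98.0% of cKO cells, and Y-linked genes had 9701 and 6 UMIs, so that genotype and sex cannot be told apart. A total of 19 barcodes occurred in both libraries, 3 of them among the Gad cells of both.

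In the MGE lineage the LIM-homeodomain factor Lhx6 acts after Nkx2-1 and is needed for the migration and subtype fate of somatostatin and parvalbumin interneurons. Sox6 is a SoxD factor that acts after Lhx6, Satb1 is a chromatin organizer that promotes interneuron maturation, and Maf is a bZIP factor that acts in MGE-derived interneurons. In the CGE lineage the homeobox factor Prox1 is needed for the maturation of interneurons, including those with vasoactive intestinal peptide (Vip), and the nuclear receptor Nr2f2 is needed for their caudal migration. Npas1 is a bHLH-PAS factor found in subsets of GABAergic neurons. Adarb2 marks CGE-derived interneurons in many single-cell studies but encodes an RNA-binding protein of the ADAR editing family, so the 8 genes are 7 transcriptional regulators and 1 RNA-binding protein.

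By identifier, all 8 genes were found in GENCODE M21 on GRCm38, each as a protein-coding gene. Lhx6 lies on chromosome 2 (36081953 to 36105408), Maf on chromosome 8 (115682942 to 115707794), Satb1 on chromosome 17 (51736187 to 51833290) and Prox1 on chromosome 1 (190118035 to 190170714), all on the minus strand. Sox6 (115470872 to 116038796), Nr2f2 (70351944 to 70366735) and Npas1 (16455721 to 16477728) lie on the minus strand of chromosome 7, and Adarb2 lies on the plus strand of chromosome 13 (8202866 to 8768747). Exons of Maf overlap the antisense gene Gm15655 and exons of Prox1 the antisense gene Prox1os, both of which are counted in the files. Since use of strand in counting is not given in the sources used here, whether reads of these partners were told apart could not be checked. Adarb2 transcripts share stretches of 136 to 352 bases at 95.3% identity or more with 12 other genes, so its counts are less certain. Identical stretches are also shared by Nr2f2 with B130024G19Rik (643 bases), by Maf with Gm15655 (402 bases), by Satb1 with Gm36931 (159 bases) and Gm6934 (128 bases), by Prox1 with Prox1os (133 bases) and by Lhx6 with Gm27953 (106 bases). B130024G19Rik, Gm36931, Gm6934 and Gm27953 overlap these genes and are not counted in the files.

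The 250 bases before an annotated start are shown for 3 genes whose presence in single cells contrasts below: the MGE-type gene Lhx6 and the CGE-type genes Adarb2 and Prox1. Capitals mark TAATTA, a core bound by many homeodomain proteins of the LIM class to which Lhx6 belongs, and CAAGTG, a core bound by Nkx2-1. Windows are from RefSeq on GRCm38.p6, at chr2:36105409-36105658 (minus strand) for Lhx6, chr13:8202616-8202865 (plus strand) for Adarb2 and chr1:190170828-190171077 (minus strand) for Prox1. Lhx6 and Prox1 have further windows at other starts, not shown, which held neither core.
Lhx6: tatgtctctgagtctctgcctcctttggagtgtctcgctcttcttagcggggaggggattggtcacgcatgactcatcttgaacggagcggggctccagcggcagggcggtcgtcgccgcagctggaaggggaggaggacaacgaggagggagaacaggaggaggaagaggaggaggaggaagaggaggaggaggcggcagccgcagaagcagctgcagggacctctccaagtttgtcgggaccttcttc
Adarb2: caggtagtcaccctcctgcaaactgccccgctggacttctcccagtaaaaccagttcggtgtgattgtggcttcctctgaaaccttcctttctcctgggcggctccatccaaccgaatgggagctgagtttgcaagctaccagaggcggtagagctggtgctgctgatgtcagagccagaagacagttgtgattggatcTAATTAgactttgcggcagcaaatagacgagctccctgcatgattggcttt
Prox1: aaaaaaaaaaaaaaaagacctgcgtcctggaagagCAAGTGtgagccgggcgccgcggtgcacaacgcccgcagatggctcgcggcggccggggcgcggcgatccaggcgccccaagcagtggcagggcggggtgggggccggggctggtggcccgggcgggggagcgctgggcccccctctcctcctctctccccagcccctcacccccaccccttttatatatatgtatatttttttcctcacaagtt
Searched on both strands, TAATTA occurred in 4.84% of 32851 such windows of all genes and CAAGTG in 11.6%. Of 19 windows of 7 of the 8 genes, TAATTA was in 1, that of Adarb2, and CAAGTG in 3, 1 each for Prox1, Satb1 and Sox6, and no window held both. A match of letters is no binding site, and none is read as one here.

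Gad cells were not cortical interneurons alone. At least 2 markers of striatal projection neurons were found in 26.6% of WT and 24.1% of cKO Gad cells, and at least 4 markers of olfactory bulb-type neuroblasts, such as Sp8, Etv1 and Meis2, in 33.9% and 19.5%. At least 2 glutamatergic markers were found in 21.0% and 18.4%, at least 2 markers of radial glia and astrocytes in 17.3% and 10.5%, at least 2 cycling markers in 12.9% and 9.0%, and at least 2 markers of oligodendrocyte precursors in 5.32% and 3.35%. Intervals lay apart for the lists of olfactory bulb-type neuroblasts, radial glia, cycling cells and oligodendrocyte precursors, all less common in cKO, and overlapped for the striatal and glutamatergic lists. Exactly 1 Gad UMI was the ground for inclusion in 835 WT (38.6%) and 507 cKO cells (28.3%).

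MGE-type genes differed between the libraries in opposite directions. Lhx6 had 581 UMIs in WT (35.7 CPM, exact Poisson interval 32.8 to 38.7) and 810 in cKO (55.7 CPM, 52.0 to 59.7), and Maf had 1393 UMIs (85.6 CPM, 81.1 to 90.2) and 2041 (140.5 CPM, 134.4 to 146.7). Sox6 had 772 UMIs in WT (47.4 CPM, 44.1 to 50.9) but 290 in cKO (20.0 CPM, 17.7 to 22.4). Satb1 had 1088 UMIs (66.8 CPM, 62.9 to 70.9) and 1187 (81.7 CPM, 77.1 to 86.5). Lhx6 and Maf were thus higher in cKO and Sox6 lower, each with intervals apart, while Satb1 was higher by a smaller amount.

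The log2 ratio of cKO over WT, with its exact conditional binomial interval, was 0.64 for Lhx6 (0.49 to 0.80), 0.71 for Maf (0.62 to 0.81), 0.29 for Satb1 (0.17 to 0.41) and -1.25 for Sox6 (-1.45 to -1.05). Lower Sox6 went with fewer positive cells and fewer UMIs in each, as 18.1% of WT and 11.5% of cKO cells had a UMI, with 1.97 and 1.41 UMIs per positive cell. Maf was found in 20.5% and 29.6% of cells, with 3.14 and 3.86 UMIs per positive cell, and Lhx6 in 9.99% and 16.7%, with 2.69 and 2.72. For Lhx6 the libraries therefore differed in the number of positive cells, at near equal UMIs per positive cell.

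Among CGE-type genes, Nr2f2 stood apart from the others. It had 1133 UMIs in WT (69.6 CPM, 65.6 to 73.8) and 1679 in cKO (115.6 CPM, 110.1 to 121.2), a log2 ratio of 0.73 (0.62 to 0.84). Prox1 had 499 UMIs (30.7 CPM) and 467 (32.1 CPM), a log2 ratio of 0.068 (-0.12 to 0.25), and Npas1 had 533 (32.7 CPM) and 530 (36.5 CPM), a log2 ratio of 0.16 (-0.020 to 0.33). Adarb2 had 336 UMIs (20.6 CPM) and 239 (16.4 CPM), a log2 ratio of -0.33 (-0.57 to -0.084). The ratios of Prox1 and Npas1 were not distinguishable from 0 by counting error, Nr2f2 was higher in cKO, and Adarb2 was slightly lower, a direction that turned (0.60, -0.045 to 1.23) with at least 1000 genes and at most 5% mitochondrial UMIs per cell.

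Of the 8 genes, all of which passed the minimum of 50 UMIs over both libraries, 4 differed at least 1.5-fold, Lhx6, Maf and Nr2f2 upward and Sox6 downward. With no limit on genes or mitochondrial UMIs per cell (called no filter on cells below), doublets were still left out. Lhx6 (0.58) and Maf (0.57) then fell just short of 1.5-fold, which left 2. Among all 12481 genes that passed, 38.7% differed as much, 11.5% upward and 27.2% downward, with a median log2 ratio of -0.13. So 4 of 8 is not far from the background. The size of single ratios was less common, since 92.9% of genes had a lower ratio than Nr2f2, 92.5% than Maf, 90.4% than Lhx6 and 8.69% than Sox6. The median over the 8 genes was 0.22, 0.47 over the MGE-type and 0.11 over the CGE-type genes. With TMM scaling, which moved the median of all genes to 0.041, 18.5% of genes were upward and 20.9% downward, and the 4 genes kept their directions at 0.82 (Lhx6), 0.89 (Maf), 0.90 (Nr2f2) and -1.08 (Sox6).

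**Figure D1:**
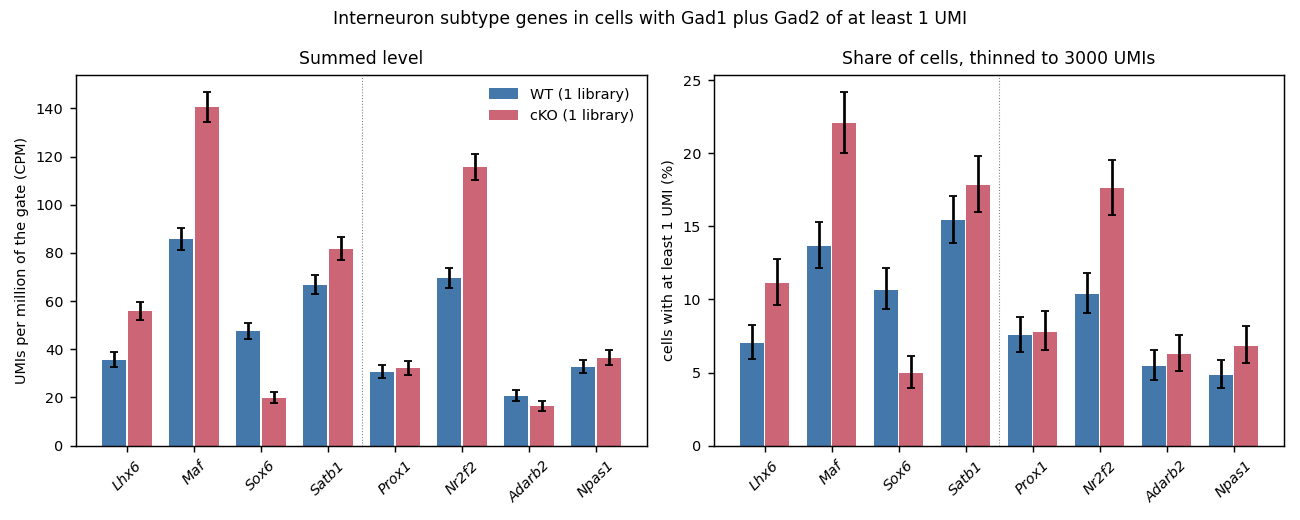
Level of each gene in Gad cells of the WT and the cKO library. Bars at left are CPM (UMIs per 1000000) with exact Poisson intervals, bars at right the percentage of positive cells, each cell thinned to 3000 UMIs, with Clopper-Pearson intervals, and the dotted line parts MGE-type (left) from CGE-type genes. Lhx6, Maf and Nr2f2 stand higher in cKO and Sox6 lower (47.4 against 20.0 CPM), while the bars of Prox1 are nearly level.

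Because cKO cells were deeper, shares of positive cells were also taken after each cell was thinned to 3000 UMIs, which left out 214 WT and 197 cKO cells as too shallow. Lhx6 was then found in 7.03% of WT and 11.1% of cKO cells, Maf in 13.7% and 22.0%, Nr2f2 in 10.4% and 17.6%, and Sox6 in 10.7% and 4.96%. Satb1 was found in 15.4% and 17.8%, Prox1 in 7.55% and 7.79%, Adarb2 in 5.44% and 6.28% and Npas1 in 4.83% and 6.85%. Differences of cKO minus WT were 8.39 percentage points for Maf (5.82 to 11.0), 7.22 for Nr2f2 (4.88 to 9.58), 4.09 for Lhx6 (2.15 to 6.06) and -5.72 for Sox6 (-7.49 to -3.93). For Prox1 the interval of the difference ran from -1.55 to 2.07 points, and for Adarb2 from -0.75 to 2.46. For Npas1 the difference was 2.02 points (0.43 to 3.65), above 0 by counting error, although its summed level was not. The thinned shares thus gave the directions of the summed levels for the 4 genes that differed most, and Adarb2, lower in CPM, was not lower in share, so no direction is read from it.

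As a gauge of free RNA, the same shares were taken in microglia-like cells (62 in WT and 31 in cKO, median 9935 and 12051 UMIs), which are not known to make these genes except Maf. After thinning, Lhx6 was found there in 3 of 52 and 2 of 29 cells (5.77% and 6.90%), Prox1 in 2 and 1 (3.85% and 3.45%), Nr2f2 in 3 and 0, Satb1 in 1 and 1, Npas1 in 1 and 0, and Sox6 and Adarb2 in 0 and 0. With so few cells, a count of 0 allows a share of up to 5.77% in WT and 10.3% in cKO. In glutamatergic-like cells the unthinned Lhx6 share was 2.57% in WT and 1.88% in cKO, below the 9.99% and 16.7% of Gad cells. Maf was found in 6.42% and 2.69% of glutamatergic-like cells, or 2.20% and 1.23% after thinning. Against 7.03% and 11.1% of thinned Gad cells, the Lhx6 share in microglia-like cells was not far lower, but it rested on 3 and 2 cells. Some single Lhx6 UMIs may thus be background, while 87 of 216 positive WT cells and 120 of 298 positive cKO cells had 3 or more. Of cells with 1 Lhx6 UMI, 50.6% in WT and 71.0% in cKO held Maf, against 15.4% and 18.8% of those without Lhx6. These shares are the co-detection counts described below and are no separate gauge of free RNA.

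Shares of positive cells also moved with the number of Gad UMIs. From cells with 1 Gad UMI to those with at least 5, Lhx6 went from 5.75% to 16.7% in WT and from 8.48% to 23.0% in cKO, Adarb2 from 6.83% to 15.2% and from 4.14% to 14.0%, and Prox1 from 8.26% to 15.9% and from 8.09% to 16.9%. Satb1 changed little, from 28.6% to 31.9% and from 34.7% to 38.0%. The WT gate held more cells with 1 Gad UMI, and with at least 3 Gad UMIs required, the log2 ratio became 0.38 for Lhx6 and 0.47 for Maf, which left Nr2f2 (0.75) and Sox6 (-1.35) past 1.5-fold. With at least 1000 genes and at most 5% mitochondrial UMIs per cell, which kept 487 WT and 301 cKO Gad cells, Nr2f2 was at 0.47 (0.25 to 0.69), under 1.5-fold. The differences in Lhx6, Maf and Nr2f2 thus depended in size on how the Gad cells were drawn.

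The genes were next examined for co-detection, by the number of cells with a UMI of both genes over the number expected from their shares among cells of like depth (10 groups of equal size by total UMIs). A ratio of 1 means that the genes fell together as often as depth alone gives, and its interval is the exact Poisson interval of the observed cells. Among MGE-type genes, Lhx6 and Maf were found together in 145 WT cells, 3.18 times the expected number (2.68 to 3.74), and in 249 cKO cells, 2.84 times (2.50 to 3.22). Lhx6 and Sox6 met in 93 and 89 cells, 2.13 times (1.72 to 2.61) and 2.45 times (1.97 to 3.01) the expected number. With the stricter filter on genes and mitochondrial UMIs the latter pair went to 1.25 (0.75 to 1.95) and 1.72 (0.89 to 3.00), no longer beyond counting error, while Lhx6 and Maf stayed at 2.51 (1.57 to 3.80) and 2.36 (1.65 to 3.26). Of Lhx6 positive cells, 67.1% in WT and 83.6% in cKO held Maf, against 15.4% and 18.8% of the remaining Gad cells.

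Ratios of at least 1.5 in both libraries were reached with Lhx6 by 2 of the other 7 genes, Maf and Sox6, while 2.22% of all 10122 genes compared did so. Satb1 was less bound to the MGE-type genes. With Lhx6 its ratio reached 1.10 (0.86 to 1.39) in WT and 1.47 (1.25 to 1.72) in cKO, with Maf 1.00 (0.83 to 1.19) and 1.30 (1.14 to 1.48), and with Sox6 1.47 (1.27 to 1.70) and 1.44 (1.20 to 1.72). Satb1 and Sox6 were both more common in Gad cells with glial or cycling markers. With at least 2 radial glia markers, Satb1 was found in 49.3% of WT and 58.5% of cKO Gad cells, against 23.5% and 31.9% of the rest. The part of such cells in the ratio of Satb1 with Sox6 was not tested. None of the other 7 genes reached 1.5 with Satb1 in both libraries, as 0.0198% of all genes did, and none was at or below 0.667, as 0.267% were. With the stricter filter Satb1 and Maf in WT were at 0.62 (0.39 to 0.94), and the intervals of Satb1 with Sox6 in both libraries (1.22, 0.98 to 1.5, and 1.14, 0.72 to 1.71) and with Lhx6 and Maf in cKO (1.09, 0.63 to 1.74, and 1.12, 0.73 to 1.66) held 1. With Sox6 only Lhx6 reached 1.5 in both libraries, against 1.42% of all genes.

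The 4 CGE-type genes fell together in every pair with the filters used here. Their 6 ratios lay between 2.29 and 4.32 in WT and between 2.25 and 3.26 in cKO, and the lowest bound of any interval was 1.84 in both libraries. Adarb2 and Npas1 had the highest ratio, with 69 shared cells in WT (4.32 times, 3.36 to 5.46) and 61 in cKO (3.26 times, 2.50 to 4.19). Prox1 and Npas1 met in 73 and 71 cells (3.45 and 2.96 times), and Prox1 and Nr2f2 in 112 and 148 (2.31 and 2.37 times). Of Prox1 positive cells, 40.7% held Nr2f2 in WT and 63.0% in cKO, against 13.8% and 19.2% of cells without Prox1. Ratios of at least 1.5 in both libraries were reached by 1.28% of all genes with Prox1, 0.553% with Nr2f2, 1.20% with Adarb2 and 2.72% with Npas1, and by all 3 other CGE-type genes with each. With the stricter filter, Prox1 and Nr2f2 in WT went to 1.21 (0.76 to 1.83) and Adarb2 and Npas1 in cKO to 1.97 (0.85 to 3.88), so these calls were lost.

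**Figure D2:**
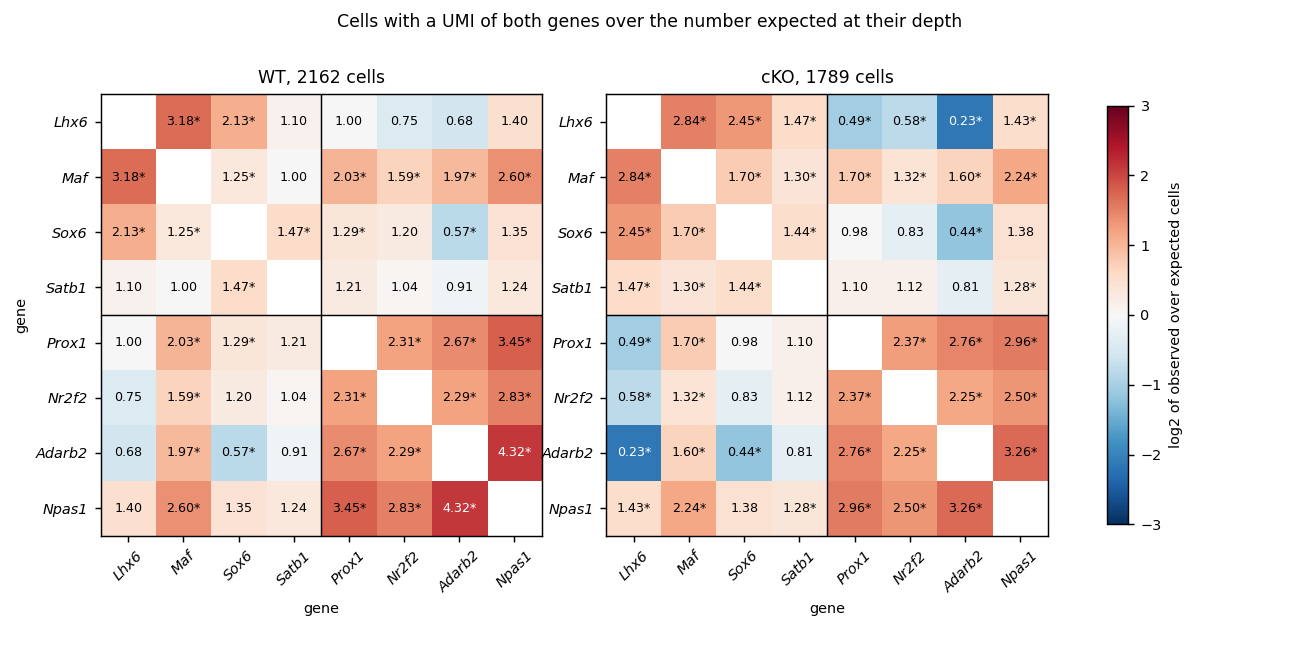
Cells with a UMI of both genes over the number expected at their depth, for each pair of the 8 genes in WT (left) and cKO (right). Numbers and colors (log2 scale) give the ratio, an asterisk marks a 95% Poisson interval that leaves out 1, and lines part MGE-type from CGE-type genes. The lower right block of CGE-type pairs is above 2 in both libraries, the row of Lhx6 falls to 0.23 with Adarb2 in cKO, and the row of Maf is above 1 with each CGE-type gene.

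Between the kinds, Lhx6 and Adarb2 were the pair found together least often relative to expectation in cKO. They met in 15 WT cells where 21.9 were expected (ratio 0.68, 0.38 to 1.13) and in 7 cKO cells where 30.8 were expected (0.23, 0.091 to 0.47). Lhx6 and Prox1 met in 28 WT cells (1.00, 0.67 to 1.45) and 19 cKO cells (0.49, 0.29 to 0.76), and Lhx6 and Nr2f2 in 31 (0.75, 0.51 to 1.07) and 43 (0.58, 0.42 to 0.78). Lhx6 was thus found with these 3 genes less often than expected, beyond counting error in cKO and not in WT, though not apart from them. For each pair the intervals of both libraries overlapped, and the difference between libraries could not be tested with 1 library each. How many of all genes had an interval below 1 with Lhx6 in cKO was not counted. With the filters used here none of the 3 pairs was at or below 0.667 in both libraries, which 5.47% of genes were with Lhx6. With no filter on cells Lhx6 and Adarb2 were, at 0.59 in WT and 0.33 in cKO, so this depended on the filter. This contrast of the libraries was not firm, as under the alternatives Lhx6 and Adarb2 in WT ran from 0.27 to 0.67. Its interval left out 1 with, for example, no filter on cells (0.59, 0.36 to 0.92), without cells of 2 or more striatal markers (0.47, 0.22 to 0.86) and in the GABAergic-like cells alone, an alternative chosen after seeing the data (0.54, 0.29 to 0.90). The interval of Lhx6 and Nr2f2 in WT also left out 1 without the striatal cells (0.66, 0.42 to 0.98), while Lhx6 and Prox1 in WT stayed between 0.84 and 1.09. In cKO the call of Lhx6 and Prox1 was lost with the stricter filter (0.53, 0.14 to 1.36, 4 cells). With at least 2 UMIs per positive cell, 1 of all 16 pairs between the kinds lay below 1 beyond counting error in cKO, against 4. Outside the Gad cells Adarb2 was found in 2.29% of WT and 0.604% of cKO cells and Lhx6 in 3.16% and 2.22%. Prox1 was found there in 5.22% and 5.51% and Nr2f2 in 20.6% and 21.4%. The part of this detection in the contrast was not tested. Sox6 and Adarb2 were at or below 0.667 in both libraries, with 22 WT cells (0.57, 0.36 to 0.87) and 8 cKO cells (0.44, 0.19 to 0.87). Of all genes, 1.17% were so with Sox6 and 2.71% with Adarb2. With the stricter filter the intervals of Sox6 and Adarb2 held 1 (0.64, 0.28 to 1.26, and 0.48, 0.059 to 1.75). In cKO the interval also held 1 without cells of any glutamatergic marker UMI (0.53, 0.23 to 1.05), and the ratio turned to 1.65 on 2 cells with at least 2 UMIs per positive cell. None of the other 7 genes was so low with Maf, Prox1, Nr2f2 or Npas1, as 1.12%, 2.09%, 0.326% and 3.38% of all genes were.

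Npas1 had no ratio below 1 with an MGE-type gene with the filters used here. It met Lhx6 in 24 WT cells (1.40, 0.90 to 2.08) and 43 cKO cells (1.43, 1.04 to 1.93), and its ratios with Sox6 were 1.35 and 1.38 and with Satb1 1.24 and 1.28. Of Gad cells with at least 2 oligodendrocyte precursor markers, 24.3% in WT and 18.3% in cKO held Npas1, against 6.30% and 9.72% of the rest. The part of such cells in its ratios with Sox6 and Satb1 was not tested. With the stricter filter the direction turned for Lhx6 in WT (0.57, 2 cells) and cKO (0.21, 1 cell) and for Sox6 in cKO (0.58, 2 cells), and the interval of Lhx6 in cKO held 1 also with at least 3 Gad UMIs (1.26, 0.86 to 1.76) and without striatal cells (1.07, 0.75 to 1.47). Sox6 and Npas1 in WT turned with at least 3 Gad UMIs (0.93, 0.57 to 1.43) and ran from 0.73 to 1.96 under the alternatives. Sox6 and Prox1 had ratios of 1.29 and 0.98, and Satb1 had ratios between 0.81 and 1.28 with all 4 CGE-type genes. With the filters used here, ratios below 1 beyond counting error were therefore seen for Sox6 with Adarb2 in both libraries and for Lhx6 with Adarb2, Prox1 and Nr2f2 in cKO, rather than for the kinds as a whole.

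Shares were also taken by the number of Lhx6 UMIs per cell. Adarb2 was found in 10.7%, 9.41% and 5.34% of WT cells with 0, 1 and at least 2 Lhx6 UMIs, and in 12.3%, 5.61% and 0.524% of cKO cells (1 of 191 in the last group, interval 0.013 to 2.88). Prox1 was found in 12.7%, 12.9% and 13.0% of WT cells and in 14.5%, 9.35% and 4.71% of cKO cells. Nr2f2 was found in 17.5%, 12.9% and 15.3% of WT cells and in 27.1%, 10.3% and 16.8% of cKO cells. Npas1 was found in 6.83%, 8.24% and 13.0% of WT cells and in 9.12% (7.71 to 10.7), 7.48% and 18.3% (13.1 to 24.6) of cKO cells. In cKO, cells with at least 2 Lhx6 UMIs thus had lower shares of Adarb2, Prox1 and Nr2f2 and a higher share of Npas1 than cells without Lhx6, with intervals apart. In WT the intervals of these groups overlapped for all 4 CGE-type genes (for Adarb2 9.40 to 12.2 and 2.18 to 10.7, the latter on 7 cells). Maf went the other way, from 15.4% over 50.6% to 77.9% in WT and from 18.8% over 71.0% to 90.6% in cKO. Cells with at least 2 Lhx6 UMIs were deeper (median 6513 in WT and 7209 in cKO, against 5484 and 6204 without Lhx6), while cells with 1 had medians of 5983 and 5489, and the part of depth in these shares was not tested.

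**Figure D3:**
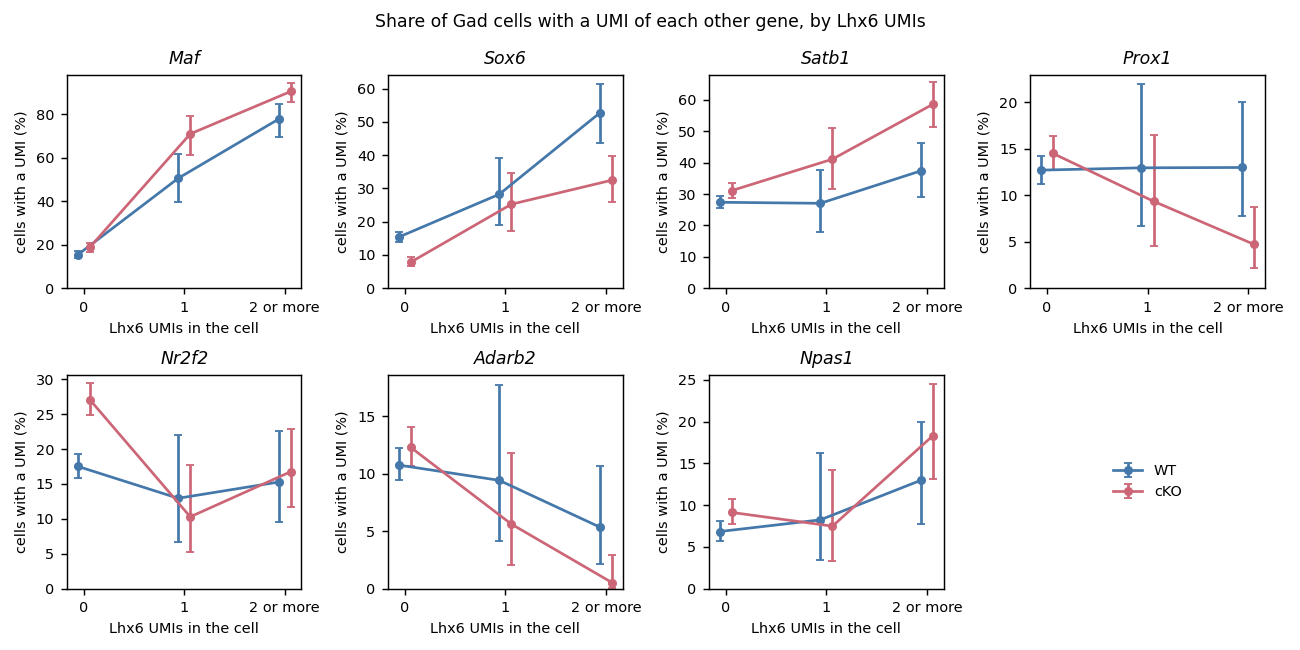
Percentage of Gad cells with a UMI of each other gene, by the number of Lhx6 UMIs in the cell (0, 1, 2 or more), in WT (blue) and cKO (red), with Clopper-Pearson intervals and a separate vertical scale per gene. Maf and Sox6 are more common with more Lhx6 UMIs in both libraries, Adarb2 falls to 5.34% in WT and 0.524% in cKO, and Prox1 falls in cKO and is level in WT.

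Maf was also found with the CGE-type genes, with a ratio above 1 beyond counting error for each of the 4 in both libraries. It met Prox1 in 116 WT cells (2.03 times the expected number, 1.68 to 2.43) and 119 cKO cells (1.70, 1.41 to 2.03), Adarb2 in 91 (1.97) and 93 (1.60), Npas1 in 88 (2.60) and 117 (2.24), and Nr2f2 in 129 (1.59) and 174 (1.32). With Maf, 4 of the other 7 genes (Lhx6, Prox1, Adarb2 and Npas1) had ratios of at least 1.5 in both libraries, against 0.879% of all genes. With the stricter filter Maf and Prox1 were at 1.47 (0.92 to 2.23) and 1.55 (0.94 to 2.43) and, in cKO, Adarb2 at 1.17 (0.61 to 2.05) and Npas1 at 1.60 (0.87 to 2.68), and Nr2f2 at 1.22 (0.81 to 1.77) and 1.17 (0.77 to 1.71), no longer beyond counting error. Among cells with at least 3 CGE-type genes, Maf was found in 69 of 92 in WT (75.0%, 64.9 to 83.4) and 75 of 106 in cKO (70.8%, 61.1 to 79.2), against 16.0% and 24.4% of cells with none. In the same cells Lhx6 was found in 6 of 92 (6.52%, 2.43 to 13.7) and 3 of 106 (2.83%, 0.59 to 8.05).

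Maf positive cells accordingly parted by Lhx6. In Maf positive cells without Lhx6 (299 in WT and 280 in cKO), Adarb2 was found in 28.8% and 31.8%, Prox1 in 32.4% and 37.9%, Nr2f2 in 36.1% and 50.7%, and Npas1 in 23.7% and 28.6%. In Maf positive cells with Lhx6 (145 and 249), Adarb2 was found in 3.45% and 1.61%, Prox1 in 13.1% and 5.22%, Nr2f2 in 14.5% and 12.9%, and Npas1 in 11.7% and 14.9%. Intervals of these shares did not overlap between the groups of cells for any of the 4 genes in either library. How many of all genes parted in this way was not counted, so the number is not read as a trait of these genes. The groups also differed in depth. Maf cells without Lhx6 had a median of 6361 UMIs in WT and 5236.5 in cKO, and those with Lhx6 5902 and 6209. The part of depth in these shares was not tested. Nxph1 and Ackr3 showed the reverse, with Nxph1 in 17.1% and 18.6% of Maf cells without Lhx6 and 74.5% and 81.5% of those with it. These groups were formed from the same counts that are described, so the split is given as a description.

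**Figure D4:**
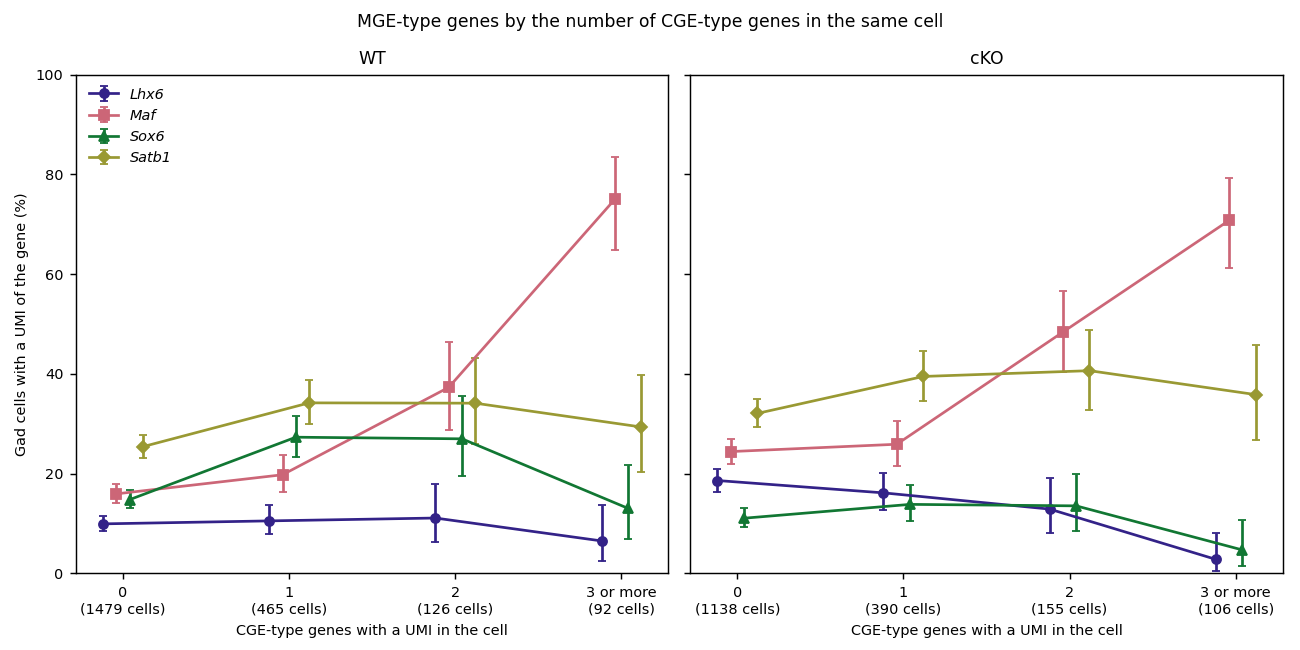
Percentage of Gad cells with a UMI of Lhx6, Maf, Sox6 or Satb1, by the number of CGE-type genes with a UMI in the same cell, in WT (left) and cKO (right). Points carry Clopper-Pearson intervals and the number of cells stands under each position. Maf rises to 75.0% in WT and 70.8% in cKO at 3 or more CGE-type genes, where Lhx6 is at 6.52% and 2.83%.

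Over all 8 genes, 819 WT Gad cells (37.9%) and 576 cKO Gad cells (32.2%) held none. Of the cells with at least 1, MGE-type genes alone were found in 49.1% in WT and 46.3% in cKO, CGE-type genes alone in 18.4% and 18.4%, and both kinds in 32.5% (30.0 to 35.0) and 35.3% (32.6 to 38.0). These are shares of cells by gene list, not of lineages, and no expected share is given beside them. Satb1, listed as MGE-type, was found in 33.47% of WT and 36.98% of cKO cells outside the Gad cells, against 27.98% and 34.66% of Gad cells. Maf, also listed as MGE-type, was common in cells with several CGE-type genes, as given above. At least 2 genes of each kind were held by 65 WT cells, 1.39 times the number expected at their depth (1.07 to 1.77), and by 76 cKO cells, 1.21 times (0.95 to 1.51). Over all Gad cells, the kinds taken as whole sets were thus not found together less often than expected. Since Gad cells were not interneurons alone, these ratios cannot show whether the kinds exclude each other among interneurons. The median ratio of pairs between the kinds was 1.23 in WT and 1.11 in cKO. Without cells of 2 or more striatal markers it was 1.01 and 0.95.

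The partner genes of each lineage were described from a list of 38 genes. Lhx6 met Nkx2-1, the factor that specifies the MGE, in 56 WT and 24 cKO cells, at 6.98 and 4.05 times the expected number. Its ratios were 2.39 and 3.16 with Sst, 2.59 and 2.86 with Npy and 3.57 and 4.16 with Nxph1. Sp8, a zinc finger factor of CGE and olfactory bulb lineages, was rare beside Lhx6, in 15 and 7 cells (0.28 and 0.16 times). Pvalb, which is turned on after birth, had 1 and 3 UMIs. Sst and Npy were thus found beside Lhx6 more often than depth alone gives, while Pvalb could not be examined at this depth.

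Among the 12 CGE partners, some were found with the CGE-type genes and some were not. Htr3a, the serotonin receptor subunit of this lineage, met Prox1 in 52 and 62 cells (2.38 and 2.75 times), Npas1 at 3.42 and 2.67 times, and Lhx6 at 1.24 and 0.26 times. Vip had only 97 and 35 UMIs in 18 and 8 cells, of which 13 and 6 held Prox1 (5.57 and 5.96 times) and 1 and 1 held Lhx6. Cnr1, the cannabinoid receptor, met Adarb2 at 1.94 and 2.19 times. Id2 was near 1 (1.02 and 1.12 with Prox1), and Lamp5, with 46 and 28 UMIs, was too rare to be judged. Reln was shared, with ratios of 2.92 and 2.98 with Npas1 and 1.12 and 1.93 with Lhx6.

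Between the libraries, 7 of the 11 MGE partners with at least 50 UMIs were at least 1.5-fold lower in cKO, among them Sst (381.0 and 231.9 CPM), Nkx2-1 (15.5 and 6.81) and Chodl (15.7 and 1.93). Of 12 CGE partners, 2 were higher (Nr2f1, 262.0 and 422.6 CPM, and Reln, 62.1 and 94.9) and 6 lower, among them Cnr1 (172.8 and 82.2) and Vip (5.96 and 2.41). Of 14 genes shared by GABAergic lineages, 4 were higher, among them Cxcr4 (9.21 and 16.2 CPM) and Ackr3 (14.7 and 27.7), and 1 lower (Erbb4). Median log2 ratios were -0.72, -0.58 and 0.11, against -0.13 for all genes, and 11.5% of all genes were higher and 27.2% lower. Beside the higher Lhx6, Maf and Nr2f2 in cKO, Ackr3, Nr2f1 and Reln were thus higher as well, while Sst, Nkx2-1 and Cnr1 were lower.

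Genes most like each member were sought by the lower of the 2 libraries' Pearson r of log counts across Gad cells, among 10007 genes. The r is a description, since the cells share a library and its depth. Lhx6 was most like Maf (r 0.51 in WT and 0.57 in cKO), Ackr3 (0.47 and 0.54), a chemokine receptor of migrating interneurons, and Nxph1 (0.46 and 0.63), a neurexin ligand. Maf was most like Lhx6, Ackr3 (0.40 and 0.47) and Nxph1 (0.37 and 0.55), and Sox6 like Nxph1 (0.26 and 0.32), Lhx6 (0.26 and 0.19) and Scrg1 (0.31 and 0.17). Prox1 was most like its antisense partner Prox1os (0.40 and 0.35), which may share its reads, then Cnr1 (0.33 and 0.33) and Npas1 (0.35 and 0.32).

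Nr2f2 was most like its paralog Nr2f1 (0.37 and 0.45), Cnr1 (0.35 and 0.40) and Npas3 (0.35 and 0.31). Adarb2 was most like Cnr1 (0.35 and 0.30), Zbtb16 (0.25 and 0.24) and Nr2f2 (0.25 and 0.24), and Npas1 like Cnr1 (0.47 and 0.38), Igf1 (0.49 and 0.34) and Npas3 (0.45 and 0.33). Cnr1 was thus among the 3 most like genes of all 4 CGE-type genes and of no MGE-type gene. For Satb1 the highest values, with Tcf4 (0.18 and 0.25), Sox6 (0.15 and 0.16) and Gm3764 (0.12 and 0.12), were lower. Like the values of Sox6 with Lhx6 and Scrg1 in cKO, they are weak for such sparse counts and are given as values only.

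Outside the Gad cells the genes differed in how closely they kept to GABAergic cells. Of all UMIs in kept cells, Gad cells held 76.5% of Lhx6 in WT and 88.3% in cKO, 75.2% and 90.5% of Adarb2, 62.1% and 85.6% of Maf and 62.0% and 79.6% of Npas1. They held 54.9% and 51.7% of Prox1, 36.5% and 42.0% of Sox6, 29.0% and 31.2% of Satb1 and 27.4% and 29.6% of Nr2f2. Lhx6 and Adarb2 were therefore the most confined to Gad cells in both libraries, and Satb1 and Nr2f2 the least.

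All kept cells were also given a class by the marker list with the most markers detected, at least 3 and without a tie, so each class is a range of marker counts. GABAergic-like cells numbered 1674 in WT and 1302 in cKO (300 and 215 of them within 1 marker of the limit), glutamatergic-like cells 2447 and 2600 (824 and 927), radial glia/astrocyte-like cells 889 and 665 (107 and 85) and oligodendrocyte precursor-like cells 273 and 145 (109 and 62). Cajal-Retzius-like cells numbered 50 and 67, mural-like cells 28 and 26 and endothelial-like cells 110 and 52, while 1003 and 1036 cells had no class. Ependymal-like (28 and 4) and fibroblast-like cells (2 and 1) were too few in cKO to be compared and are left out of the order of classes below.

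Lhx6 was highest in GABAergic-like cells, at 54.2 CPM in WT (49.9 to 58.8) and 85.0 in cKO (79.1 to 91.1), and at most 7.17 CPM in any other named class. Adarb2 was likewise at 31.6 and 23.4 CPM there and at most 3.57 in any other named class. Sox6 was highest in oligodendrocyte precursor-like cells, where it is known to hold back differentiation, at 337.1 CPM in WT (309.9 to 366.1) and 128.6 in cKO (107.2 to 153.2), followed by radial glia/astrocyte-like cells at 89.2 (82.6 to 96.2) and 35.8 (31.3 to 40.8) and GABAergic-like cells at 47.1 (43.1 to 51.4) and 22.0 (19.1 to 25.3). In this order neighbors did not overlap in either library. Sox6 was thus lower in cKO in all 3 classes that held most of it, and the lower level in Gad cells was not theirs alone.

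Inside the Gad gate Sox6 followed the same cells. It was found in 72.2% of WT and 38.3% of cKO Gad cells with at least 2 oligodendrocyte precursor markers and in 46.0% and 24.8% of those with at least 2 cycling markers, both groups being smaller in cKO. In the Gad cells with fewer than 2 precursor markers it was found in 15.1% (13.6 to 16.7) and 10.6% (9.17 to 12.1). It was found in 46.9% and 30.9% of Gad cells with at least 2 radial glia markers (375 and 188 cells), and outside these in 12.1% (10.6 to 13.7) and 9.24% (7.87 to 10.8), where the intervals of the libraries overlapped. In the GABAergic-like Gad cells alone, an alternative chosen after seeing the data, the log2 ratio of Sox6 was -1.08. That class can still hold cells with glial or cycling markers. Of the Gad cells, 88 in WT and 56 in cKO were radial glia/astrocyte-like by class, fewer than the 375 and 188 with at least 2 such markers. The part of the mix of cells in the Sox6 difference was not tested.

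Nr2f2 was highest in Cajal-Retzius-like cells, the early reelin neurons of the cortical surface, at 791.4 CPM in WT (729.7 to 856.8) and 827.1 in cKO (776.6 to 879.9), and was found in 100% and 98.5% of them. Mural-like cells followed at 295.8 (218.1 to 392.2) and 353.1 (270.7 to 452.7), and these 2 classes did not differ between the libraries beyond counting error. In GABAergic-like cells Nr2f2 was at 67.1 (62.3 to 72.2) and 116.8 (109.9 to 124.0) and in glutamatergic-like cells at 42.5 (40.0 to 45.2) and 70.3 (67.3 to 73.5), so it was higher in cKO in both neuron classes.

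Among the 8 classes shown, Maf was highest in microglia-like cells in WT, at 451.7 CPM (403.2 to 504.4) against 159.0 in cKO (124.4 to 200.3), and in GABAergic-like cells in cKO, at 124.7 (118.1 to 131.6) in WT and 205.5 (196.4 to 215.0) in cKO, where the intervals of these 2 classes overlapped. Only 6 WT and 5 cKO Gad cells held at least 2 microglial markers. Npas1 was at 126.3 (109.8 to 144.5) and 81.7 (64.8 to 101.7) in oligodendrocyte precursor-like cells, above the 45.1 and 51.7 of GABAergic-like cells. Satb1 was also highest in precursor-like cells, at 114.4 (98.8 to 131.7) and 139.9 (117.4 to 165.4). Prox1 was highest in GABAergic-like cells (43.8 and 43.0), but in cKO it did not differ beyond counting error from precursor-like cells, which were at 13.7 (8.68 to 20.6) in WT and 41.9 (30.0 to 56.8) in cKO.

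**Figure D5:**
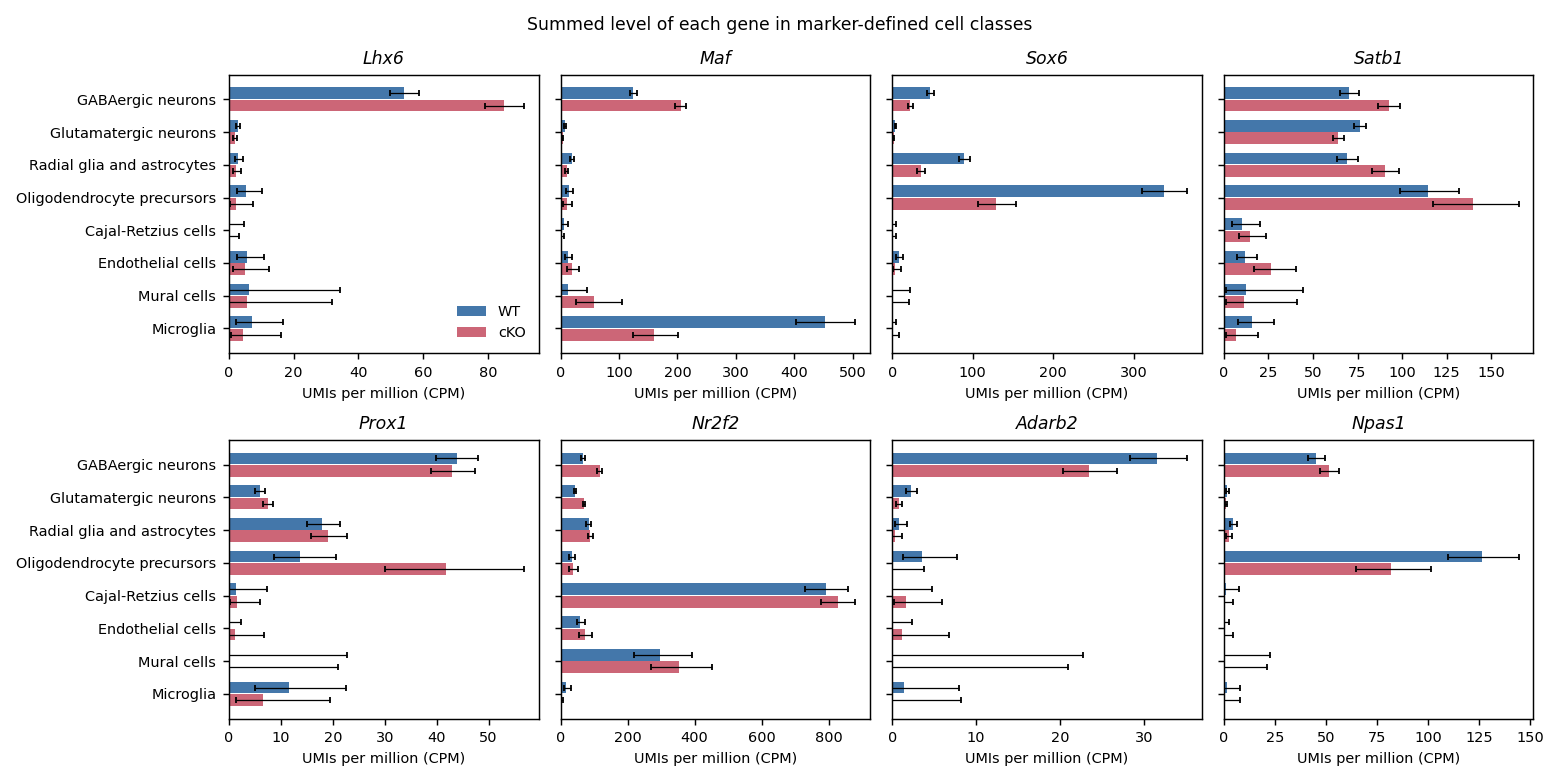
Level of each gene in 8 marker-defined cell classes of all kept cells, as CPM (UMIs per 1000000) with exact Poisson intervals, in WT (blue) and cKO (red), with a separate horizontal scale per gene. Lhx6 and Adarb2 stand almost only in GABAergic-like cells, Sox6 stands highest in oligodendrocyte precursor-like cells (337.1 and 128.6 CPM), Nr2f2 in Cajal-Retzius-like cells and Maf, in WT, in microglia-like cells.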

How the data were processed

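Single-cell RNA sequencing (10x Genomics Chromium) of 1 WT and 1 cKO library was analysed, grouped by genotype as labelled. For each library the authors deposited raw UMI counts per gene and barcode, with no normalization; per the file headers Cell Ranger 3.0.1 wrote them, while the submitters' processing notes name STAR, Cell Ranger 2, Seurat and mm9. How cells were called and whether counting used strand are not given in the sources used here. The authors' table of cluster fold changes and p-values was not used.

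Cells with at least 500 genes and at most 10% mitochondrial UMIs were kept (6766 WT, 6080 cKO). Scrublet (scanpy 1.11.5) scores above 0.2 were left out as doublets (2.96% and 2.48%). This limit was set after seeing the data, because the automatic threshold called none in cKO. Levels are UMIs per 1000000 of the summed cells (CPM). Positive means at least 1 UMI. Named genes were the 8 members, 38 listed partners, the 3 most like genes per member (at least 50 positive cells per library, r of at least 0.1 of log(1 + UMIs per 10000)), and Tmem173, Xist and Y-linked genes. Similar transcripts were sought with BLAST 2.17.0, and 27645 of 27998 gene identifiers matched GENCODE M21. RefSeq windows were found for 7 of 8 members. TMM factors (edgeR 4.0.16, R 4.3.3) were used for scaling alone. Scripts were tested on simulated data. Values of some listed partners are not reported here. Members and lists were chosen with earlier results of these data known. Alternatives were other filters, gates, scalings, thinning and limits for a positive cell. The alternative with no filter on cells lifted the limits on genes and mitochondrial UMIs and still left out doublets.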

Additional observations from a re-analysis of the deposited data

How the results depend on the processing

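No paired analysis was possible because there was 1 library per group. Of the 8 genes, 4 were past 1.5-fold, and 2 with no filter on cells (Nr2f2 and Sox6) and 2 with at least 3 Gad UMIs (the same genes). With at least 1000 genes and at most 5% mitochondrial UMIs the count was 4, but Nr2f2 (0.47) was no longer past the limit and Adarb2 was, reversed to 0.60. Across all 12 alternatives log2 ratios stayed between 0.38 and 1.12 for Lhx6, 0.47 and 1.09 for Maf, 0.47 and 1.02 for Nr2f2, and -1.47 and -1.08 for Sox6. That filter kept 487 WT and 301 cKO Gad cells. Of the co-detection values under all alternatives, 574 moved by less than the counting error, 94 by more and 4 reversed. With the stricter filter Lhx6 and Npas1 in cKO went to 0.21 (1 cell) and Lhx6 and Adarb2 in WT to 0.31 (1 cell). It also ended the calls of Lhx6 and Sox6 (1.25 and 1.72), Prox1 and Nr2f2 in WT (1.21) and Adarb2 and Npas1 in cKO (1.97), among others. Thinned to 3000 UMIs, Lhx6 and Adarb2 in WT were at 0.27 (2 cells) and Lhx6 and Prox1 in cKO at 0.22 (3 cells). Sox6 and Prox1 in WT were at 0.98 without cells of 2 or more striatal markers and at 0.82 with at least 2 UMIs per positive cell, and Sox6 and Adarb2 in cKO at 1.65 with the latter (2 cells). The share of positive cells with both kinds of gene in WT was 38.4% with the stricter filter, 37.0% with at least 3 Gad UMIs, 35.8% without cells of 4 or more olfactory bulb-type markers (added after seeing the data), 23.4% with at least 2 UMIs and 20.4% thinned, and in cKO 23.3% and 24.5% for the last pair, so shares of mixed cells depend on depth. The cause of these shifts was not tested otherwise. With 1 library each, genotype, sex and library cannot be told apart.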
